A study of Mus musculus with 9 samples.

Results

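The genes described here were *Csf1* and 9 receptor chains for colony-stimulating factors and cytokines, namely *Csf1r*, *Csf2ra*, *Csf2rb*, *Csf2rb2*, *Csf3r*, *Kit*, *Il6ra*, *Il4ra* and *Il10ra*. They were chosen by gene symbol, and all 10 were found among the 18325 genes with values and passed the filter on low counts. Bulk RNA-seq covered 9 libraries of sorted lung neutrophils from female BALB/c mice, bought at 6 to 8 weeks of age, with 3 libraries in each of 3 groups. Ly6Ghigh and Ly6Glow neutrophils came from lungs at the MACRO (macrometastatic) stage, the fourth week or later after 4T1-LM3 cells were injected into the mammary fat pad, and the third group was Ly6Ghigh neutrophils from normal lung (NL). 4T1-LM3 cells were derived from 4T1, a mouse mammary carcinoma line, by selection for growth in the lung. No transgene or deletion is named for these mice, and cells were gated on CD45 and Ly6g protein after collagenase digestion of the lung. Whether a library held 1 mouse or several pooled mice was not given in the sources used here, so p-values measure the spread between libraries only.

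Colony-stimulating factors are secreted proteins that drive the production, survival and activation of myeloid cells. G-CSF acts through *Csf3r* on the granulocyte lineage, M-CSF (the product of *Csf1*) acts through the receptor tyrosine kinase *Csf1r* on monocytes and macrophages, and GM-CSF acts on both through the alpha chain *Csf2ra* and a shared beta chain. *Kit*, another receptor tyrosine kinase, binds stem cell factor and marks progenitors and mast cells. The receptors without kinase activity of their own signal through JAK kinases and STAT factors, and SOCS proteins, induced by that signal, dampen it.

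Each library held 15267177 to 17841807 estimated counts, which were scaled to CPM, the counts of a gene relative to the library size, by edgeR's TMM factors. These factors were 0.945 to 0.95 in Ly6Ghigh, 0.803 to 0.807 in Ly6Glow and 1.3 to 1.32 in NL libraries. FPKM, which divides by length and by all fragments, carries no such factor, so a gene could stand higher than NL in CPM and lower in FPKM. The median log2 fold change of all tested genes was -0.041, -0.088 and -0.16 in Ly6Glow over Ly6Ghigh, Ly6Ghigh over NL and Ly6Glow over NL on TMM-scaled counts, and -0.13, -0.32 and -0.49 on log2(FPKM + 1). NL replicate 2 stood apart from its group, with a chi-square per degree of freedom of 4.63 and 6.15 against the other NL libraries, where all other pairs of replicates had 1.41 to 3.00. *Ly6g*, whose protein set the gate, had 361 to 380.1 CPM in Ly6Ghigh, 385 to 403 in Ly6Glow and 118 to 120.2 in NL libraries. In FPKM it had 396 to 417, 358 to 373 and 178 to 184 in the same groups, so the order of the Ly6Ghigh and Ly6Glow libraries in *Ly6g* mRNA depended on the scaling. The 12 neutrophil marker genes summed to 105803 to 108452 CPM in Ly6Ghigh, 87487 to 89164 in Ly6Glow and 23278 to 23499 in NL libraries. The 12 markers of stroma, epithelium or tumor summed to 222 to 231 CPM, 249 to 264 CPM and 1901 to 2103 CPM in the same groups. The part of this difference in the results against NL was not tested. In bulk RNA, fewer cells of a type and less RNA per cell cannot be told apart.

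*Csf3r*, the G-CSF receptor, was the most abundant of the 10 genes in every library and was higher in Ly6Ghigh than in NL neutrophils and higher again in Ly6Glow neutrophils. It ranked between 30 and 31 among all genes by FPKM in Ly6Glow libraries and between 49 and 51 in the other libraries. The Ly6Ghigh libraries had 3751, 3746 and 3738 CPM, the Ly6Glow libraries 6839, 7036 and 6909 CPM, and the NL libraries 2191, 2038 and 2177 CPM. No library of one group reached the values of another. The log2 fold change was 0.89 in Ly6Glow over Ly6Ghigh (SE 0.0291, edgeR adjusted p = 1.74e-16). In Ly6Ghigh over NL it was 0.81 (SE 0.0291, edgeR adjusted p = 8.41e-17) on TMM-scaled counts and 0.37 on log2(FPKM + 1), where it did not pass the fold threshold. In Ly6Glow over NL it was 1.70 (SE 0.0297, edgeR adjusted p = 3.55e-22), and 1.01 on log2(FPKM + 1). In FPKM, the scale on which levels of different genes can be compared, *Csf3r* had means of 1053 ± 1.75 in Ly6Ghigh, 1646 ± 19.7 in Ly6Glow and 818 ± 26.1 in NL neutrophils (SD, n = 3). It made up 58.9% to 59.2% of the summed FPKM of the 9 receptor genes in Ly6Ghigh libraries, 65.9% to 66.6% in Ly6Glow libraries and 46.2% to 47.3% in NL libraries. The receptor gene with the next highest mean FPKM in each group was *Csf2rb*.

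**Figure D1:**
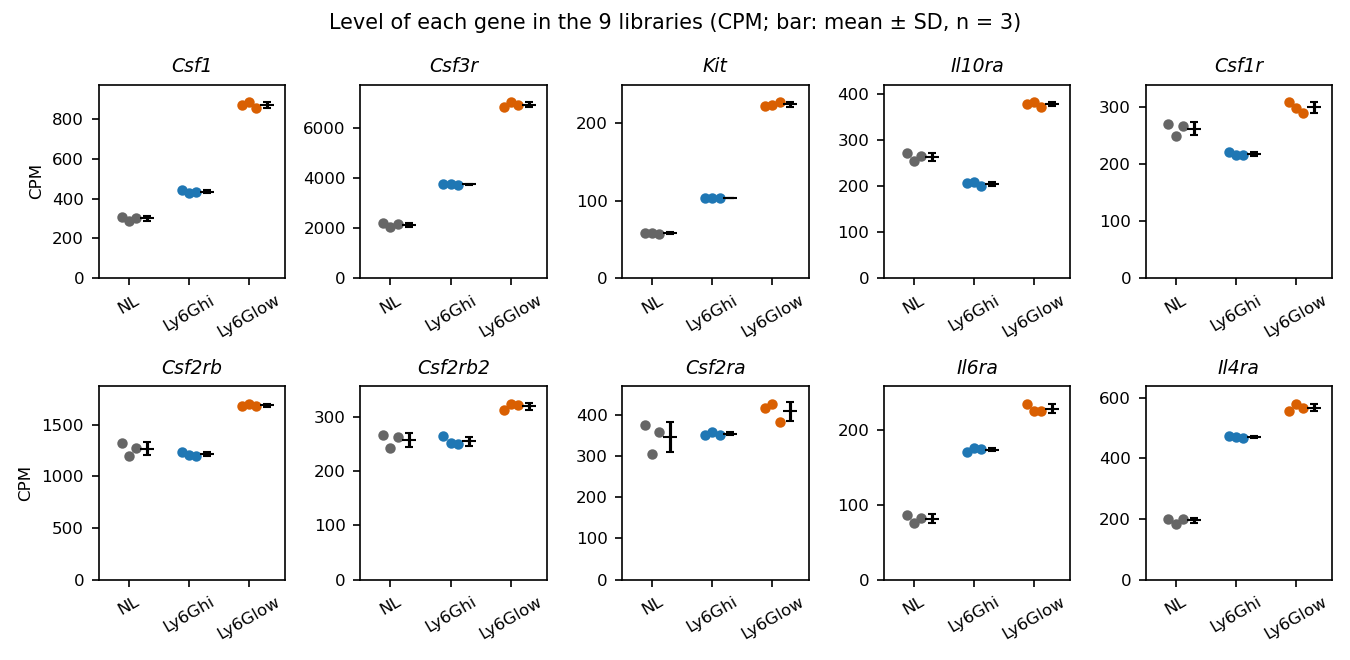
TMM-scaled CPM of each of the 10 genes (vertical axes, each from 0) in the 9 libraries, with 1 point per library and the mean ± SD (n = 3) beside the points. Ly6Glow points lie above Ly6Ghigh points in all 10 panels, and *Csf1*, *Csf3r* and *Kit* are ordered NL, Ly6Ghigh, Ly6Glow from low to high.

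To be called changed, a gene had to reach an edgeR adjusted p of 0.05 or less and a log2 fold change beyond 0.58 in either direction. Between Ly6Glow and Ly6Ghigh neutrophils of the same lung stage, 4 of the 10 genes (*Csf1*, *Csf3r*, *Kit* and *Il10ra*) were called, all higher in Ly6Glow, and the other 6 fell under the fold threshold. Of all 14108 tested genes, 25.2% were called in this comparison, 9.29% higher and 15.9% lower, and 55.8% passed the adjusted p alone, as did all 10 of these. The calls higher in Ly6Glow were 36.8% of all calls, and 14.3% of those made on log2(FPKM + 1). The 3 Ly6Glow libraries stood above all 3 Ly6Ghigh libraries for each of the 10 genes in CPM, as did 29% of all tested genes. The median log2 fold change of the 10 genes was 0.47. On log2(FPKM + 1) the same 4 genes were called, with *Csf1* at 0.77, *Csf3r* at 0.64, *Kit* at 0.85 and *Il10ra* at 0.64. *Csf2ra* changed sign to -0.046. Of the 14108 tested genes, 320 were called higher and 1923 lower on that scale. Markers of immature granules summed to 9244 to 9509 CPM in Ly6Glow and 30854 to 31321 CPM in Ly6Ghigh libraries, with 11 of 11 tested markers called lower in Ly6Glow. The part of this difference in the receptor results was not tested.

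Against NL, Ly6Ghigh neutrophils had 4 of the 10 genes called higher (*Csf3r*, *Kit*, *Il6ra* and *Il4ra*) and none called lower, with 62.9% of all tested genes called, 26.3% higher and 36.6% lower. Without the fold threshold, 7 of the 10 passed the edgeR adjusted p, as did 84.6% of all tested genes. In CPM the 3 Ly6Ghigh libraries stood above all NL libraries for 5 of the 10 genes and below them for 2 (*Csf1r* and *Il10ra*), as they did for 40.2% and 45% of all tested genes. In Ly6Glow over NL, 5 genes were called higher (*Csf1* and the same 4) and none lower, with 69.5% of all tested genes called, 28.7% higher and 40.8% lower. Without the fold threshold all 10 passed, as did 86.8% of all tested genes, and in CPM all 10 stood above NL without overlap, as did 39.4%. The calls higher in the macrometastatic group were 41.8% of all calls in Ly6Ghigh over NL, against 21.8% on log2(FPKM + 1), and 41.3% in Ly6Glow over NL, against 14.9%. The median of the 10 log2 fold changes was 0.28 in Ly6Ghigh over NL and 1.00 in Ly6Glow over NL. The comparisons with NL share its 3 libraries. On log2(FPKM + 1), Ly6Ghigh over NL had 2 genes called higher (*Il6ra* at 0.61 and *Il4ra* at 0.79). Another 2 were called lower (*Csf1r* at -0.72 and *Il10ra* at -0.82). Of the 14108 tested genes, 1429 were called higher and 5134 lower there. In Ly6Glow over NL, 1125 were called higher and 6438 lower on log2(FPKM + 1). On that scale Ly6Glow over NL kept its 5 calls, while *Csf1r*, *Csf2ra*, *Csf2rb*, *Csf2rb2* and *Il10ra* changed sign, to between -0.50 and -0.18. The direction of these last 5 genes in Ly6Glow over NL therefore depended on the scaling.

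**Figure D2:**
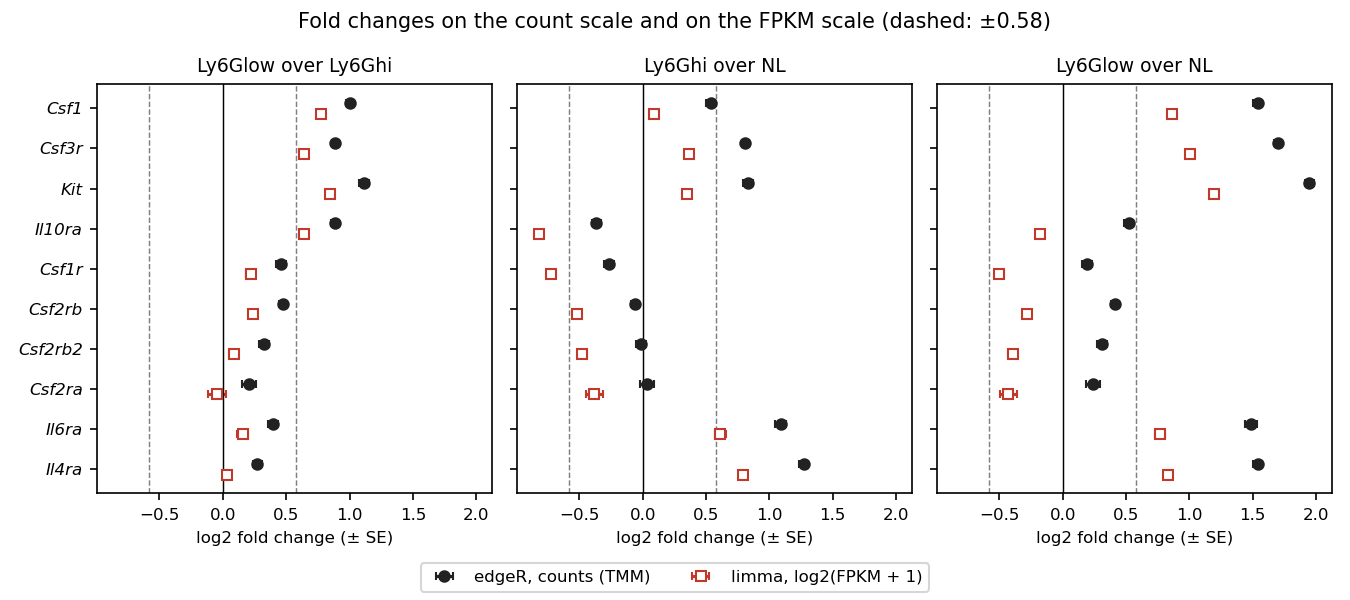
Log2 fold changes ± SE of the 10 genes in the 3 comparisons, from edgeR on TMM-scaled counts (filled) and from limma on log2(FPKM + 1) (open), with dashed lines at the fold threshold of 0.58. The FPKM values lie to the left of the count values throughout, and in Ly6Glow over NL *Csf1r*, *Csf2ra*, *Csf2rb*, *Csf2rb2* and *Il10ra* lie on opposite sides of 0 on the 2 scales.

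*Csf1* encodes M-CSF and was the only ligand among the 10 genes. Its level was 444, 429 and 434 CPM in the Ly6Ghigh libraries, 873, 887 and 859 CPM in the Ly6Glow libraries and 309.98, 287 and 305 CPM in the NL libraries. All Ly6Glow libraries stood near double the Ly6Ghigh level, with a fold of 2.00. The log2 fold change was 1.00 in Ly6Glow over Ly6Ghigh (SE 0.0335, edgeR adjusted p = 2.35e-16) and 1.54 in Ly6Glow over NL (SE 0.0338, edgeR adjusted p = 1.38e-20). In Ly6Ghigh over NL it was 0.54 (SE 0.0337, edgeR adjusted p = 2.00e-12), under the fold threshold, and 0.088 on log2(FPKM + 1). *Csf1* was among the genes of immunosuppression that the study displayed from these same libraries, so its direction is not independent evidence. The mean FPKM of *Csf1* was 104 ± 1.99 in Ly6Ghigh, 179 ± 3.11 in Ly6Glow and 97.9 ± 3.01 in NL neutrophils (SD, n = 3).

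*Csf1r*, the receptor for M-CSF and for the product of *Il34*, was called in no comparison on TMM-scaled counts and was called lower in Ly6Ghigh over NL on log2(FPKM + 1). The Ly6Ghigh libraries had 221, 215 and 215 CPM, the Ly6Glow libraries 308, 298 and 289.7 CPM, and the NL libraries 269, 248 and 267 CPM. The 3 groups did not overlap in CPM and were ordered Ly6Ghigh, NL, Ly6Glow. The log2 fold change was 0.46 in Ly6Glow over Ly6Ghigh (SE 0.0381, edgeR adjusted p = 9.31e-10), and 0.22 on log2(FPKM + 1). In Ly6Ghigh over NL it was -0.27 (SE 0.0374, edgeR adjusted p = 9.78e-07) and -0.72 on log2(FPKM + 1), whereas Ly6Glow over NL gave 0.19 (SE 0.0373, edgeR adjusted p = 6.39e-05) on TMM-scaled counts and -0.50 on log2(FPKM + 1). Mean FPKM was 53.8 in Ly6Ghigh, 62.8 in Ly6Glow and 89.3 in NL neutrophils. Monocytes and macrophages also express *Csf1r*. Their 14 markers summed to 718 to 731 CPM in Ly6Ghigh, 548 to 557 CPM in Ly6Glow and 1465 to 1521 CPM in NL libraries, and 12 markers of alveolar macrophages summed to 1527 to 1580, 326 to 347 and 1764 to 1786 CPM. In Ly6Glow over Ly6Ghigh, 6 of the 14 and 9 of the 12 were called lower and none higher, with 15.9% of all tested genes called lower. *Cd68*, of the first list, stood higher in Ly6Glow, at 177 against 131 CPM, under the fold threshold. No marker of either list was at 0 in all libraries of a group. The part of these cells in the *Csf1r* level was not tested in any comparison.

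*Csf2ra* binds GM-CSF with low affinity, *Csf2rb* is the beta chain that it shares with the receptors for IL-3 and IL-5, and *Csf2rb2* is a mouse paralog of *Csf2rb* that serves IL-3. *Csf2rb* (GRCm38 chr15:78325752-78353847, plus strand) and *Csf2rb2* (chr15:78282507-78305721, minus strand) lie beside each other. Their coding sequences, of 2688 and 2634 bases in GENCODE, were identical at 2504 of 2626 aligned bases (95.4%), with a longest identical run of 242 bases. The windows of 60 bases that differ most within an exon are shown because they are where reads tell the genes apart best, with the 13 bases that differ in capitals. They lie at chr15:78338893-78338952 in exon 5 of *Csf2rb* and at chr15:78294379-78294438 in exon 4 of *Csf2rb2*.
Csf2rb: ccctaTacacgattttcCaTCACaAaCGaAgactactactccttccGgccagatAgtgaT
Csf2rb2: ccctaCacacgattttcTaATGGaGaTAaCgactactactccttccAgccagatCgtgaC
Of all windows of 150 bases in the *Csf2rb2* coding sequence, 6.64% also occurred in *Csf2rb*, and of windows of 50 bases 26.6% did. How the authors' counting shared such reads was not given in the sources used here, so the counts of both genes are uncertain.

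On TMM-scaled counts none of these 3 genes was called in any comparison. *Csf2rb* had 1236, 1207 and 1201 CPM in Ly6Ghigh, 1679.7, 1705 and 1685 CPM in Ly6Glow, and 1322, 1201 and 1279 CPM in NL libraries. Ly6Glow stood above both other groups in CPM, and Ly6Ghigh and NL overlapped. For this gene edgeR gave a log2 fold change of 0.48 in Ly6Glow over Ly6Ghigh (SE 0.0326, edgeR adjusted p = 3.83e-11), under the fold threshold, and -0.061 in Ly6Ghigh over NL (SE 0.0324, edgeR adjusted p = 0.0857). For *Csf2rb2* the Ly6Ghigh libraries had 264, 252 and 249 CPM, the Ly6Glow libraries 312, 324 and 321 CPM, and the NL libraries 266, 243 and 262 CPM. The pattern was that of *Csf2rb*, with log2 fold changes of 0.32 in Ly6Glow over Ly6Ghigh (SE 0.0387, edgeR adjusted p = 2.75e-07) and -0.011 in Ly6Ghigh over NL (SE 0.0382, edgeR adjusted p = 0.786). *Csf2ra* had 352, 359 and 352 CPM in Ly6Ghigh, 417, 428 and 382 CPM in Ly6Glow, and 376, 305 and 359 CPM in NL libraries. Its NL replicate 2 was the lowest of all 9 libraries. The log2 fold change of *Csf2ra* was 0.21 in Ly6Glow over Ly6Ghigh (SE 0.0551, edgeR adjusted p = 0.00305), with -0.046 on log2(FPKM + 1). In Ly6Ghigh over NL it was 0.033 (SE 0.0544, edgeR adjusted p = 0.576), and -0.046 without NL replicate 2. On log2(FPKM + 1), Ly6Ghigh over NL gave -0.52 for *Csf2rb* (limma adjusted p = 1.27e-08), -0.48 for *Csf2rb2* (1.38e-07) and -0.38 for *Csf2ra* (0.000228), so that all 3 were lower than in NL on that scale, under the fold threshold. In Ly6Glow over NL the values were 0.24 for *Csf2ra*, 0.42 for *Csf2rb* and 0.31 for *Csf2rb2* on TMM-scaled counts, and -0.43, -0.28 and -0.39 on log2(FPKM + 1).

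*Kit* had the lowest mean FPKM of the 10 genes in every group and the largest fold change among them in both comparisons of Ly6Glow neutrophils on TMM-scaled counts. The Ly6Ghigh libraries had 103.7, 103.5 and 104.1 CPM, the Ly6Glow libraries 222, 224 and 228 CPM, and the NL libraries 58.5, 58.9 and 57.5 CPM. The groups were far apart relative to their spread. The log2 fold change was 1.11 in Ly6Glow over Ly6Ghigh (SE 0.0357, edgeR adjusted p = 1.23e-16) and 1.95 in Ly6Glow over NL (SE 0.0368, edgeR adjusted p = 1.24e-21). In Ly6Ghigh over NL it was 0.83 (SE 0.0381, edgeR adjusted p = 6.41e-15), and 0.35 on log2(FPKM + 1). Per length it reached 19.2 ± 0.0808 FPKM in Ly6Ghigh, 35.3 ± 0.447 FPKM in Ly6Glow and 14.9 ± 0.29 FPKM in NL neutrophils (SD, n = 3). Mast cells carry *Kit*. Of 10 markers of mast cells and basophils, *Hdc*, which makes histamine and is also expressed in neutrophils, held most of the sum. The other markers, of which 8 had values, summed to 43.3 to 45.1 CPM in Ly6Ghigh, 25.2 to 28.8 CPM in Ly6Glow and 26.4 to 29.3 CPM in NL libraries. Of the 7 tested markers, *Hdc* included, 1 (*Hdc*) was called higher and 4 lower in Ly6Glow over Ly6Ghigh. In Ly6Ghigh over NL, 5 were called higher and 1 lower, and in Ly6Glow over NL 5 higher and 1 lower. Of all tested genes, 9.29%, 26.3% and 28.7% were called higher and 15.9%, 36.6% and 40.8% lower in the same comparisons. Basophil proteases moved with *Kit* against NL, but opposite to *Kit* in Ly6Glow over Ly6Ghigh. *Mcpt8* was at 11.7, 6.79 and 0.98 CPM and *Prss34* at 10.3, 5.79 and 0.271 CPM in Ly6Ghigh, Ly6Glow and NL. *Gata2* was highest in NL, at 14.4, 9.78 and 24.4 CPM in the same order. The part of these cells in the *Kit* level was not tested.

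*Il6ra* and *Il4ra*, the ligand-binding chains for IL-6 and for IL-4, stood higher in both macrometastatic groups than in NL and differed less between Ly6Glow and Ly6Ghigh. *Il6ra* had 171, 175 and 174 CPM in Ly6Ghigh, 235, 225 and 224 CPM in Ly6Glow, and 86.3, 75.3 and 82.4 CPM in NL libraries. The step from NL to Ly6Ghigh was 1.09 on the log2 scale (SE 0.0437, edgeR adjusted p = 5.84e-16), and the step from Ly6Ghigh to Ly6Glow was 0.40 (SE 0.042, edgeR adjusted p = 4.57e-08). For *Il4ra* the libraries had 472, 471 and 465 CPM in Ly6Ghigh, 555, 579.9 and 565 CPM in Ly6Glow, and 201, 184 and 199 CPM in NL. For this gene edgeR gave a log2 fold change of 1.27 in Ly6Ghigh over NL (SE 0.0358, edgeR adjusted p = 1.20e-18) and 1.54 in Ly6Glow over NL (SE 0.0361, edgeR adjusted p = 3.70e-20). In Ly6Glow over Ly6Ghigh it was 0.27 (SE 0.0348, edgeR adjusted p = 7.64e-07) and 0.035 on log2(FPKM + 1), where limma's adjusted p was 0.387. Both genes kept their calls against NL on log2(FPKM + 1).

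*Il10ra*, the ligand-binding chain for the anti-inflammatory cytokine IL-10, had its lowest values in Ly6Ghigh neutrophils. The Ly6Ghigh libraries had 207, 208 and 199 CPM, the Ly6Glow libraries 379, 383 and 373 CPM, and the NL libraries 271, 254 and 266 CPM. The order Ly6Ghigh, NL, Ly6Glow was that of *Csf1r*, and the groups did not overlap. The log2 fold change was 0.89 in Ly6Glow over Ly6Ghigh (SE 0.0352, edgeR adjusted p = 4.09e-15) and -0.37 in Ly6Ghigh over NL (SE 0.0348, edgeR adjusted p = 2.47e-09). In Ly6Glow over NL it was 0.52 (SE 0.0342, edgeR adjusted p = 3.80e-12), under the fold threshold, but -0.18 on log2(FPKM + 1). Lymphocytes also carry this chain. Their 11 markers, of which 10 had values, summed to 71.2 to 73.1 CPM in Ly6Ghigh, 45.6 to 48.3 CPM in Ly6Glow and 74.1 to 75.7 CPM in NL libraries. Their sum was lower in Ly6Glow than in Ly6Ghigh libraries. The similar sums of Ly6Ghigh and NL held moves both ways, with 3 of 9 tested markers called higher and 4 lower. Of all tested genes, 26.3% were called higher and 36.6% lower in Ly6Ghigh over NL. *Il10ra* was higher in Ly6Glow than in Ly6Ghigh on both scales. Against NL, *Il10ra* in Ly6Glow was higher in CPM and lower in FPKM (88.3 against 100.1). The part of lymphocytes, or of other cells, in the *Il10ra* level was not tested.

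Many receptor chains work in pairs. The ratio of the FPKM of 2 receptor genes was therefore taken within each library, which cancels the scaling of that library. *Csf2rb2* and *Csf2rb* are paralogs, and *Csf3r* and *Csf1r* are separate receptors, so those 2 ratios are not of paired chains. The ratio of *Il6st* (gp130, the signalling chain for IL-6) to *Il6ra* was 0.184, 0.185 and 0.179 in Ly6Ghigh, 0.11, 0.119 and 0.11 in Ly6Glow, and 1.03, 1.20 and 1.08 in NL libraries. It was thus 6.01-fold lower in Ly6Ghigh than in NL neutrophils and 1.62-fold lower again in Ly6Glow. *Il6st* is also expressed by stromal and endothelial cells, whose markers were higher in NL libraries, and their part was not tested. *Il13ra1*, which pairs with *Il4ra* to bind IL-4 and IL-13, stood to *Il4ra* at 0.964, 0.915 and 0.971 in Ly6Ghigh, 1.51, 1.47 and 1.54 in Ly6Glow, and 0.956, 1.09 and 0.915 in NL libraries. The ratio was 1.59-fold higher in Ly6Glow than in Ly6Ghigh, and Ly6Ghigh and NL overlapped, with a log2 difference of -0.05 that was 0.022 without NL replicate 2. The ratio of *Il10rb*, the second IL-10 receptor chain, to *Il10ra* averaged 1.01 ± 0.0224 in Ly6Ghigh, 0.885 ± 0.0257 in Ly6Glow and 0.643 ± 0.0377 in NL neutrophils (SD, n = 3). That of *Csf2rb* to *Csf2ra* averaged 1.44 ± 0.0289, 1.76 ± 0.102 and 1.59 ± 0.119, with Ly6Glow and NL overlapping. *Csf2rb2* to *Csf2rb* was 0.214 ± 0.00306, 0.193 ± 0.00332 and 0.209 ± 0.00201, 1.11-fold lower in Ly6Glow than in Ly6Ghigh with no overlap between any of the groups. *Csf3r* to *Csf1r*, a ratio added after the values were seen, was 19.3 to 19.7 in Ly6Ghigh, 25.1 to 26.9 in Ly6Glow and 9.13 to 9.19 in NL libraries. It was 2.14-fold higher in Ly6Ghigh than in NL and 1.34-fold higher in Ly6Glow than in Ly6Ghigh. With 3 libraries on each side, the smallest p of a two-sided exact permutation test is 0.1. Of the 18 comparisons of ratios, 16 had that p, which is 0.113 after Benjamini-Hochberg adjustment over the 18. The exceptions were *Csf2rb* to *Csf2ra* in Ly6Glow over NL (exact p = 0.3) and *Il13ra1* to *Il4ra* in Ly6Ghigh over NL (exact p = 0.8).

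**Figure D3:**
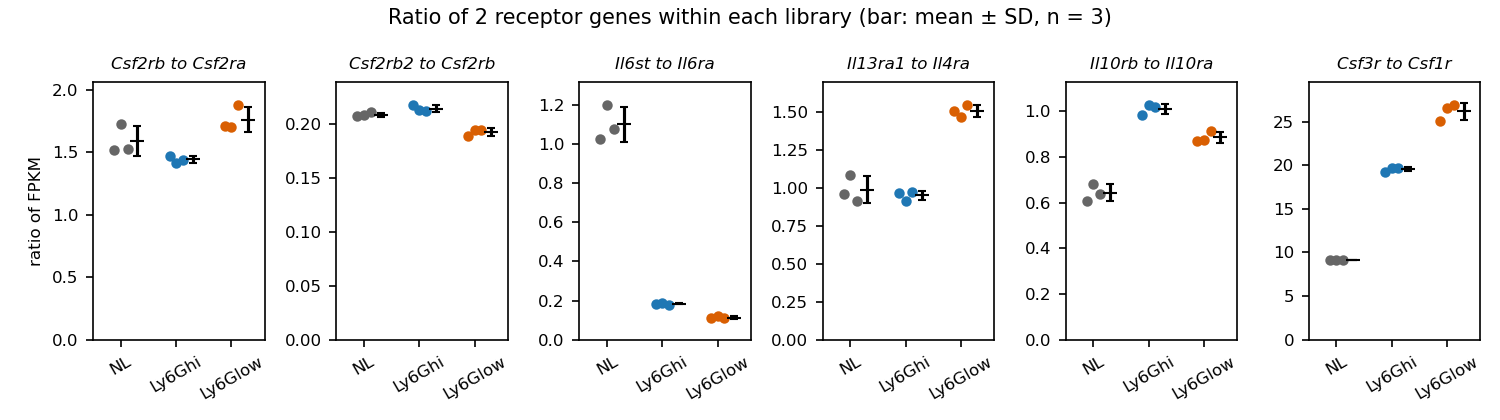
Ratio of the FPKM of 2 receptor genes within each library (vertical axes, each from 0), with 1 point per library and the mean ± SD (n = 3) beside the points. *Il6st* to *Il6ra* is above 1 in all 3 NL libraries and below 0.2 in the other 6, and *Il13ra1* to *Il4ra* is highest in the Ly6Glow libraries.

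Other genes of these pathways were taken from a list of 71, of which 69 were tested. In Ly6Glow over Ly6Ghigh 9 were called higher and 6 lower, in Ly6Ghigh over NL 27 and 21, and in Ly6Glow over NL 37 and 22. Of all tested genes, 25.2%, 62.9% and 69.5% were called in the same comparisons. The shares called higher were 9.29%, 26.3% and 28.7%, and those called lower 15.9%, 36.6% and 40.8%. The pathway calls had the same direction in mean FPKM except 6 of the 37 higher in Ly6Glow over NL (*Adam17*, *Grn*, *Ifnar1*, *Ptprj*, *Socs3* and *Tec*). The mean FPKM of those 6 was not higher. Of 18 partner receptors tested, 5 were called higher and 10 lower in Ly6Ghigh over NL, and 6 higher and 11 lower in Ly6Glow over NL. Those called higher in both were *Il13ra1*, *Ifngr1*, *Ifngr2* and *Ifnar2*. *Ifngr1*, which binds interferon gamma, had mean FPKM of 169 in Ly6Ghigh, 186 in Ly6Glow and 74.3 in NL neutrophils, and its partner *Ifngr2* had 73.7, 91.3 and 37.5. *Il13ra1* had 82.9, 135 and 49.2 FPKM, a log2 fold change of 0.94 in Ly6Glow over Ly6Ghigh. Also called higher in that comparison were *Il10rb* (56.9 FPKM in Ly6Ghigh and 78.1 in Ly6Glow) and the interferon receptor chain *Ifnar1* (20.3 and 27.6). *Il3ra* and *Il5ra*, the alpha chains that pair with *Csf2rb* for IL-3 and IL-5, were called lower in Ly6Glow than in Ly6Ghigh, at 1.46 against 2.76 FPKM and 0.647 against 1.24 FPKM. The eosinophil list, which holds *Il5ra*, summed to 36.2 to 37.9 CPM in Ly6Glow and 111 to 119 CPM in Ly6Ghigh libraries, with its granule gene *Prg3* at 0 in all Ly6Glow libraries.

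The receptors lower in both macrometastatic groups than in NL were mostly of low level. *Il6st* had mean FPKM of 9.04 in Ly6Ghigh, 6.23 in Ly6Glow and 35.2 in NL, and *Il2rg*, the common gamma chain, had 29.5, 22.7 and 70.6. The oncostatin M receptor *Osmr* had 0.89, 0.913 and 11.9 FPKM. *Lifr*, *Il7r*, *Il2rb*, *Il21r*, *Il27ra*, *Flt3* and *Epor* each had a mean under 10 FPKM in every group and were called lower in both. *Epor* had at most 3 counts in any Ly6Ghigh or Ly6Glow library and at most 30 in NL. Dendritic cell markers, among which *Flt3* is counted, summed to 14.4 to 16.6 CPM in Ly6Ghigh, 15.3 to 16.7 in Ly6Glow and 48.2 to 53.6 in NL libraries, and erythroid markers to at most 0.433 CPM in the macrometastatic groups and 20.8 to 24.4 in NL. The markers of stroma, epithelium or tumor were also higher in NL libraries, as given above. The part of any of these cells in these differences was not tested.

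Among the ligands, only *Osm* (oncostatin M) and *Csf1* were abundant. *Osm* had mean FPKM of 203 in Ly6Ghigh, 212 in Ly6Glow and 372 in NL neutrophils, with no call in any comparison on TMM-scaled counts, where its log2 fold change was -0.41 in Ly6Ghigh over NL and -0.11 in Ly6Glow over NL. *Il6* had 13.2, 7.74 and 43.1 FPKM. *Kitl*, the ligand of *Kit*, had 1.32, 1.35 and 17.4 FPKM and was called lower in both macrometastatic groups than in NL. Its log2 fold changes were -3.26 and -3.00, opposite in direction to those of *Kit*. The 12 markers of stroma, epithelium or tumor had medians of -3.25 and -3.45 in the same comparisons. The part of such cells in the *Kitl* level was not tested. *Csf3*, which encodes G-CSF, had 1.53, 3.74 and 6.76 FPKM, with a log2 fold change of 1.51 in Ly6Glow over Ly6Ghigh that was called. *Csf2*, which encodes GM-CSF, was at most 0.383 FPKM in the macrometastatic groups and 2.19 FPKM in NL. *Il4* and *Il13* went the other way. *Il4* had 3.19, 1.12 and 0.22 FPKM, with at most 3 counts in any NL library, and *Il13* had 3.79, 1.24 and 0.783 FPKM. Both were called lower in Ly6Glow than in Ly6Ghigh and higher in both than in NL. The basophil proteases *Mcpt8* and *Prss34* had the same order of groups, and the eosinophil list was also highest in Ly6Ghigh libraries. The part of these cells was not tested. *Lif*, *Tslp*, *Il34* and *Il5* were each called lower in both macrometastatic groups than in NL, from means of at most 10.7 FPKM, with *Il34* at no more than 3 counts in any Ly6Ghigh or Ly6Glow library. *Il10*, at 1.52, 0.89 and 2.14 FPKM, and *Flt3l*, at 4.52, 3.07 and 5.46 FPKM, were not called in any comparison. These calls, too, were made on TMM-scaled counts. *Il3* had at most 2 counts in any library and was not tested.

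**Figure D4:**
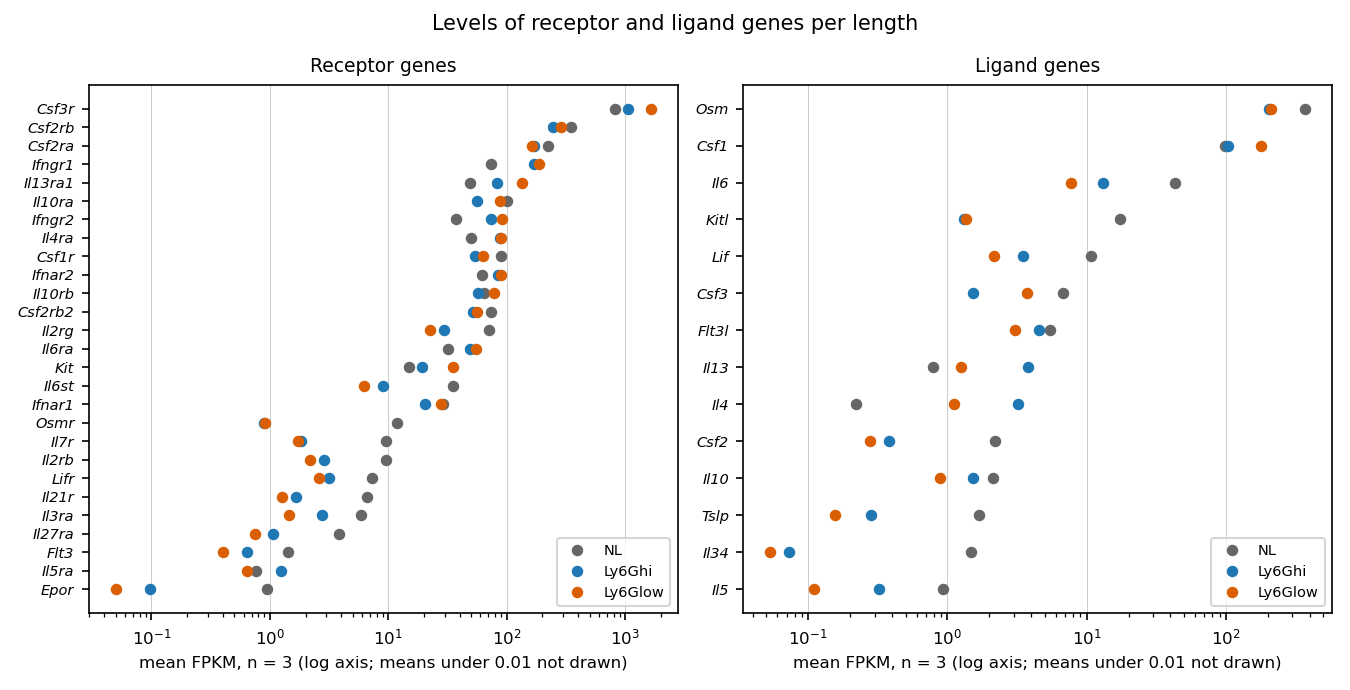
Mean FPKM (n = 3, log axis, no error drawn) of the tested receptor genes, partner chains included, and of the tested ligand genes in NL, Ly6Ghigh and Ly6Glow neutrophils, ordered by level. *Csf3r* heads the receptors at 818, 1053 and 1646 FPKM, and *Osm* and *Csf1* are the only ligands whose mean exceeds 50 FPKM.

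Most kinase and adaptor genes downstream of these receptors were called higher in the macrometastatic groups than in NL. Of 14 kinases and adaptors, 11 were called higher and none lower in Ly6Ghigh over NL, and 12 higher and none lower in Ly6Glow over NL. Among all tested genes, 26.3% were called higher and 36.6% lower in Ly6Ghigh over NL, and 28.7% and 40.8% in Ly6Glow over NL. In Ly6Glow over Ly6Ghigh 1 was called, the kinase *Syk* (0.60). *Fes*, a tyrosine kinase of myeloid cells, rose from 115 ± 9.19 CPM in NL to 322 ± 11.6 CPM in Ly6Ghigh (SD, n = 3, log2 fold change 1.48), and *Pik3cg*, a PI3-kinase catalytic subunit, from 49.7 ± 1.99 to 128 ± 2.63 CPM (1.36). *Fgr*, a Src family kinase, rose from 359 ± 13.1 CPM in NL to 956 ± 10.7 CPM in Ly6Glow (1.41). Of the 9 JAK and STAT genes, 4 were called higher in Ly6Ghigh over NL and 6 in Ly6Glow over NL, with none lower. *Jak2*, a kinase that the GM-CSF and G-CSF receptors use, had 292 ± 7.42 CPM in Ly6Ghigh and 476 ± 21.7 CPM in Ly6Glow (SD, n = 3). Its log2 fold change in Ly6Glow over Ly6Ghigh reached 0.71 (SE 0.0394, edgeR adjusted p = 1.28e-12). *Stat3* was also called higher in that comparison, at 0.65.

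The 15 regulators moved in both directions. In Ly6Ghigh over NL 5 were called higher and 3 lower, and in Ly6Glow over NL 11 higher and 4 lower. The shares of all tested genes were 26.3% and 36.6% in the first, and 28.7% and 40.8% in the second comparison. *Ptpn6* (SHP-1), a phosphatase that dampens cytokine receptors, rose from 193 ± 12.6 CPM in NL to 547 ± 10.8 CPM in Ly6Ghigh (SD, n = 3, log2 fold change 1.5). The SOCS genes did not move together. *Socs3*, which inhibits signalling by gp130 and by *Csf3r*, had 764 ± 26.8 CPM in Ly6Ghigh and 1342 ± 43.8 CPM in Ly6Glow, 0.81 apart on the log2 scale (SE 0.0424, edgeR adjusted p = 3.99e-13). *Socs2* had 7.89 ± 0.589 CPM in Ly6Ghigh and 3.79 ± 0.25 CPM in Ly6Glow, with -1.05 as its log2 fold change (SE 0.125, edgeR adjusted p = 2.47e-07), and stood at 18.4 ± 0.89 CPM in NL. *Socs1* was called lower in Ly6Ghigh and in Ly6Glow than in NL, at 13.2, 10.9 and 21.5 CPM in that order. *Cblb*, a ubiquitin ligase that restrains receptor signalling, had 15.4, 10.6 and 37.2 CPM. *Adam17*, the protease that sheds *Csf1r* and *Il6ra* proteins from the cell surface, was called higher in Ly6Glow than in Ly6Ghigh, at 387 ± 5.03 against 239.7 ± 1.77 CPM (log2 fold change 0.69, edgeR adjusted p = 4.38e-14).

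Genes whose profile over the 9 libraries was nearest to 3 of the receptors and ligands were sought among 7388 genes with a mean of at least 10 CPM, by the root mean square difference between log2 CPM profiles, each centred on its own mean. Nearest to *Csf3r* were *Upp1* (0.0407), *Sipa1l1* (0.0524) and *Grina* (0.0553). *Grina* stood at 2287, 4090 and 1272 CPM in Ly6Ghigh, Ly6Glow and NL neutrophils. Among the nearest to *Csf1* were *Spatc1* (0.0475) and *Zfp263* (0.0558), with *Spatc1* at 111, 223 and 78.1 CPM. Nearest to *Csf1r* were *Polr2a* (0.0241), the large subunit of RNA polymerase II, *Ankrd11* (0.0295) and *Sqstm1* (0.0362). *Polr2a* stood at 201, 275 and 246 CPM. The 9 libraries form 3 tight groups, so a profile here holds little more than 3 levels.

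The promoters of myeloid receptor genes are known for sites of the factor PU.1, whose core is GAGGAA. Promoter windows from RefSeq (GRCm38.p6, 250 bases before to 50 after the start) were held for 7 of the 10 genes, and GAGGAA, on either strand, occurred in those of *Csf2ra*, *Csf2rb2*, *Csf3r*, *Il6ra* and *Kit*. Of 32851 promoters in the same table, 28.3% held it. It did not occur in the windows of *Csf1* and *Il4ra*, and *Csf1r*, *Csf2rb* and *Il10ra* were not in the table. The 30 bases around each match are given 5′ to 3′ on the strand of the gene, with the core in capitals (TTCCTC where it lies on the other strand), to show where these letters stand in the genes whose levels are described.
Csf3r, chr4:126024561-126024590, plus strand: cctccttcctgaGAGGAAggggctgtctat
Kit, chr5:75574752-75574781, plus strand: ggagagtgctagGAGGAAgaggatccaggg
Csf2ra, chr19:61228412-61228441, minus strand: cctgcagatGAGGAAGAGGAAgcgggagac
Csf2rb2, chr15:78305871-78305900, minus strand: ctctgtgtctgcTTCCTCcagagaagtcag
Csf2rb2, chr15:78305675-78305704, minus strand: ggcactggcaacTTCCTCaatctgctctct
Il6ra, chr3:89913249-89913278, minus strand: cttcagcaccggTTCCTCaaatgtttcact
The match in *Csf2ra* is a tandem pair. *Csf3r*, *Kit* and *Il6ra*, which were called higher in both macrometastatic groups than in NL on TMM-scaled counts, hold GAGGAA. So do *Csf2ra* and *Csf2rb2*, which were called in none of the comparisons. *Il4ra*, also called higher in both groups than in NL, does not hold it in its window. Of the other motifs searched on both strands, TTGCNNAA (C/EBP) occurred in 10.8% of all promoters, TTCNNNGAA (STAT) in 8.3%, TGTGGT (RUNX) in 16.8% and TATAAA in 13.6%, and among the 7 genes they gave 1 match, of TTCNNNGAA in *Csf2rb2*. The mice were BALB/c, and the reference is that of C57BL/6J.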

How the data were processed

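Lung neutrophils were sorted by flow cytometry and sequenced by BGI, per the labels from poly(A)-selected, strand-marked, paired-end Illumina libraries. The authors deposited an estimated count and an FPKM value per gene and library. The build mm10 is named in the submitters' processing notes, and the aligner and counter were not given in the sources used here. The estimated counts deposited by the authors were not normalized (37.9% were whole, and all were rounded), and the FPKM values deposited by the authors were scaled by length and total fragments. Groups came from titles and treatment fields. The description field of the NL libraries names only the Ly6Ghigh group.

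Of 22064 genes listed, 3739 were blank, 18325 had values and 14108 passed filterByExpr. Counts were compared with edgeR 4.0.16 (R 4.3.3, TMM, quasi-likelihood F test on all 9 libraries, Benjamini-Hochberg over all tested genes). An SE is the log2 fold change divided by the square root of F. Replicate counts differed by more than sampling noise. At this depth the biological coefficient of variation was 0.0346. FPKM was tested with limma 3.58.1 on log2(FPKM + 1), a scale that understates changes of low genes. The scripts were tested on simulated data. Alternatives were DESeq2 1.42.0 and its size factors, upper-quartile factors, other filters, thresholds and pseudocounts, the 6 libraries of a comparison alone, a replicate block, and leaving out each library. The 10 genes and all gene lists were chosen with earlier results of these data known. Named were these genes, *Ly6g*, partner receptors and ligands, and per comparison the 3 largest called increases and decreases among the other pathway genes with at least 5 CPM. *Syk* and *Stat3*, the calls that cross scales, and the marker genes *Hdc*, *Mcpt8*, *Prss34*, *Gata2* and *Prg3* were named after their values were seen, and 2 genes that the rule names are not reported here. Gene positions and coding sequences are from GENCODE M21 (GRCm38).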

Additional observations from a re-analysis of the deposited data

How the results depend on the processing

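Leaving out each library of a comparison in turn gave 18 counts (6 per comparison), in all of which 4, 4 and 5 of the 10 genes were called in Ly6Glow over Ly6Ghigh, Ly6Ghigh over NL and Ly6Glow over NL, as with all libraries. The other pathway genes called ranged from 14 to 16, 47 to 49 and 58 to 61. Without a fold threshold 10, 7 and 10 of the 10 genes were called, and a threshold of 1 left 2 in Ly6Glow over Ly6Ghigh and 2 in Ly6Ghigh over NL. Both settings change the rule of the call itself. Of all 14108 tested genes, 7868, 11930 and 12246 were called without a fold threshold, and 1305, 6012 and 7085 with a threshold of 1. Of the other pathway genes, 15 were called in Ly6Glow over Ly6Ghigh, 46 without a fold threshold, 5 with a threshold of 1, and 8 on log2(FPKM + 1), with or without a minimum of 1 FPKM. In Ly6Glow over NL 59 were called, against 37 on log2(FPKM + 1), 39 with a pseudocount of 0.1 and 35 with the FPKM minimum. With DESeq2 or its size factors, *Il10ra* was also called in Ly6Glow over NL, which made 6 genes.

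Signs turned for these values, none of which was called. For *Csf2ra*, Ly6Glow over Ly6Ghigh was -0.046 on all FPKM settings. Its value in Ly6Ghigh over NL was -0.16 with upper-quartile factors, -0.14 with at least 10 counts in every library, -0.38 on log2(FPKM + 1) with or without the FPKM minimum, -0.39 with a pseudocount of 0.1 and -0.046 without NL replicate 2, within a range of -0.046 to 0.093 over the libraries left out. *Csf2rb2* in Ly6Ghigh over NL was 0.013 with DESeq2 or its size factors and 0.0099 without a filter. It was 0.0015 without Ly6Ghigh replicate 2, 0.015 without Ly6Ghigh replicate 3, 0.012 without NL replicate 1 and 0.0057 without NL replicate 3, within a range of -0.047 to 0.015. In Ly6Glow over NL, the FPKM settings (a pseudocount of 1 with or without the minimum, then 0.1) gave -0.50 and -0.51 for *Csf1r*, -0.43 and -0.43 for *Csf2ra*, -0.28 and -0.28 for *Csf2rb*, -0.39 and -0.40 for *Csf2rb2*, and -0.18 and -0.18 for *Il10ra*. The median of all genes in Ly6Glow over NL was -0.16 on TMM-scaled counts and -0.49 on log2(FPKM + 1). The TMM factors, 0.803 to 0.807 in Ly6Glow and 1.3 to 1.32 in NL libraries, enter the scaled counts but not the FPKM. The log2 difference of the *Il13ra1* to *Il4ra* ratio in Ly6Ghigh over NL was 0.022 without NL replicate 2, within a range of -0.10 to 0.022.

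Over all tested genes, deviations from the group mean correlated at -0.068 to 0.077 between libraries of the same replicate number. Each mean was of 3 libraries, and many genes had low counts. This cannot settle whether libraries of a number came from the same lungs. With a replicate block, 3522, 8856 and 9775 of all tested genes were called, against 3560, 8874 and 9809 without it. Depth limits only the genes of few counts, such as *Epor*, *Il34* and *Il3*.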
